A study of Mus musculus with 3 samples.

Results

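The collagen gene family was described in stromal, osteoblast-lineage and tumour cells of mouse calvaria, the roof of the skull. Its members were all genes whose symbol has the form of a collagen alpha chain, such as Col1a1, and that held at least 30 unique molecular identifiers (UMIs, counted RNA molecules) over the 3 libraries. Of 44 such symbols among 31053 listed genes, 40 were members. Just inside the minimum were Col6a5 with 50 UMIs and Col25a1 with 51, and outside it were Col28a1 with 24, Col6a4 with 17, Col19a1 with 6 and Col4a6 with 2. The members comprised 11 fibrillar chains, 5 chains of basement membrane collagen, 5 of beaded filaments, 3 short chains, 8 fibril-associated chains, 4 transmembrane collagens, 2 multiplexins, the anchoring fibril chain Col7a1, and Col26a1.

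C57BL/6 mice, 8 weeks old, gave all 3 libraries. The control was calvaria that carried no tumour. For the scratch-negative library, the pre-invasive stage, cells of HNM007, a mouse line of head and neck squamous cell carcinoma, had been implanted onto intact bone. For the scratch-positive library, the invasive stage, the same cells were implanted after a needle had scratched the bone surface, which removes the periosteum, the fibrous layer that covers it. At 1 week the tumour was excised from the implanted bones, and from each tissue live CD45+ (immune) and CD45- cells were mixed in equal numbers. How many mice each library held is not given in the sources used here. Each group had 1 library, so no replicate spread exists, no test between groups was possible and no p-value is given. Scratched bone without a tumour had no library, so the scratch, the loss of periosteum and invasion cannot be told apart.

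Collagens are secreted proteins in which 3 alpha chains wind into a triple helix. Fibrillar collagens such as types I and III form the banded fibres that give bone, periosteum and scar their tensile strength. Type IV collagen forms the sheet of basement membranes, type VI forms beaded filaments around cells, and fibril-associated collagens decorate the fibre surface. In bone, type I collagen made by osteoblasts is the scaffold that is mineralised, while fibroblasts make type III collagen alongside type I.

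Cells were clustered without the collagen genes and named from markers. The fibroblast/periosteal class held 49, 539 and 421 cells (control first, then scratch-negative, then scratch-positive, an order kept wherever 3 values are listed), the osteoblast-lineage class 60, 72 and 15, and the tumour class 1, 202 and 3635. All 12 fibroblast markers and all 12 osteoblast markers were detected in their own class in each library. In the tumour class 11 of 12 epithelial markers were detected in scratch-negative, with Krt5 at 0, and 12 of 12 in scratch-positive. The libraries shared few barcodes, 16 between control and scratch-negative, 24 between control and scratch-positive and 30 between scratch-negative and scratch-positive. Levels are given as CPM, UMIs scaled to a total of 1e6 over all UMIs of a class in a library. These counts tag the 3′ end of each transcript, so they do not scale with gene length and levels of different genes are comparable only as molecules counted. A ratio between libraries was called at 1.5-fold or more, with its whole 95% counting interval on that side of 1 and at least 10 UMIs in both libraries together. Intervals cover counting error only.

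Promoter windows were taken from RefSeq (GRCm38.p6) for members that the comparisons turn on and whose RefSeq start coincides with the gene start used here. Each is the 250 bases before the start, 5′ to 3′ on the gene's own strand. Capitals mark the CCAAT box (read as ATTGG on the other strand), the TATA element TATAAA (read as TTTATA there) and the GC box GGGCGG (read as CCGCCC there). Col3a1 (chr1:45311288-45311537, plus strand) and Col7a1 (chr9:108953336-108953585, plus strand) are shown because they moved in opposite directions between the tumour-bearing libraries in fibroblasts. Col6a3 (chr1:90843972-90844221, minus strand) is shown as the abundant type VI chain with the larger difference there. Col5a1 (chr2:27886175-27886424, plus strand) is shown as the leading fibrillar chain of scratch-positive tumour cells.
Col3a1: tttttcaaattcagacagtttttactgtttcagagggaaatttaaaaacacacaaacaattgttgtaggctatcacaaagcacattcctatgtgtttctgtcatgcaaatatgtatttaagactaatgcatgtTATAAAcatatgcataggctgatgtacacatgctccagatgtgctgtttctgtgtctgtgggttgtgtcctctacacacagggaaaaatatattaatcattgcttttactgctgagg
Col7a1: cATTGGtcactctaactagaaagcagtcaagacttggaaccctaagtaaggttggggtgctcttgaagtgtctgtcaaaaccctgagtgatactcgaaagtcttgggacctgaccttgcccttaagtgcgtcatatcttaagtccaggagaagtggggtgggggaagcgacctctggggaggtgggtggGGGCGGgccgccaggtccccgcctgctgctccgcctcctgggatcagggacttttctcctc
Col6a3: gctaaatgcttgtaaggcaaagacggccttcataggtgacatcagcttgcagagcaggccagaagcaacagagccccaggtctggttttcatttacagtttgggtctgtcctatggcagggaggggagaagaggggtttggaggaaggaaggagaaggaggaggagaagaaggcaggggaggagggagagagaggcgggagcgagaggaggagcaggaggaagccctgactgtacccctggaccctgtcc
Col5a1: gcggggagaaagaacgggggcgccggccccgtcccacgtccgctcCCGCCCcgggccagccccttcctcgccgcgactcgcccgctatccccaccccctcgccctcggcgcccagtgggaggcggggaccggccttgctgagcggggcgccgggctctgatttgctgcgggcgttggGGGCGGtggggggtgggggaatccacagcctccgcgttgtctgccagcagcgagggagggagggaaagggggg

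The Col3a1 window held 1 TATAAA, whose first base lies 117 bases before the start, and no GGGCGG. Col7a1 held 1 ATTGG, 249 bases before the start, and 1 GGGCGG. The Col5a1 window held 2 GC boxes and no TATAAA, and none of these motifs was in the Col6a3 window. A match is a description of the letters, not a binding site. Of the 40 members, 31 had an entry in the promoter table, with 34 windows, and 9 had none. GGGCGG was in 58.8% of the member windows and in 32.7% of all 32851 windows of the same length. CCAAT was in 35.3% of the member windows and 33.8% of all windows, and TATAAA in 14.7% and 12.4%. TGANTCA, the AP-1 element, was in 2.94% of the member windows and 6.75% of all.

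Type IV chains are encoded in head-to-head pairs. The starts of Col4a4, on the minus strand, and Col4a3, on the plus strand, lie 71 bases apart, and the stretch between them (chr1:82586850-82586920) is shown on the plus strand because most of their UMIs in the 3 classes described here lay in tumour cells. None of the motifs above was in it.
Col4a4 and Col4a3: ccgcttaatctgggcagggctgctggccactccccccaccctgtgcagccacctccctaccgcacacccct

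Collagen genes supplied a large part of all RNA in the stromal classes and little in tumour cells. In fibroblasts they made up 6.74% of UMIs in control, 5.79% in scratch-negative and 4.12% in scratch-positive. In osteoblast-lineage cells the share was 9.78%, 12.9% and 8.56%. In tumour cells it was 0.0625% in scratch-negative and 0.0419% in scratch-positive, above the neutrophils, which should make no collagen and held 0.00334%, 0.0189% and 0.00955% in the 3 libraries. Those neutrophil shares were taken as the level that free RNA or stray cells can give a barcode, and their source was not tested.

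The kind of collagen differed between classes. Fibrillar chains supplied 98.3%, 98.8% and 98.4% of the collagen UMIs of osteoblast-lineage cells in the 3 libraries, and 91.4%, 92.8% and 87.3% of those of fibroblasts. In tumour cells they supplied 39.3% in scratch-negative and 19.3% in scratch-positive. Beaded filament chains gave 23.5% and 29.97% there, basement membrane chains 14.5% and 17.7%, multiplexins 7.39% and 13.9%, and Col7a1 4.83% and 6.86%. Neutrophil barcodes also carried the fibrillar chains Col1a1, Col1a2 and Col3a1. The part of free RNA or stray cells in the tumour fibrillar shares was not tested. In fibroblasts the beaded filament chains gave 3.99%, 2.82% and 7.25% of collagen UMIs, highest in scratch-positive.

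**Figure D1:**
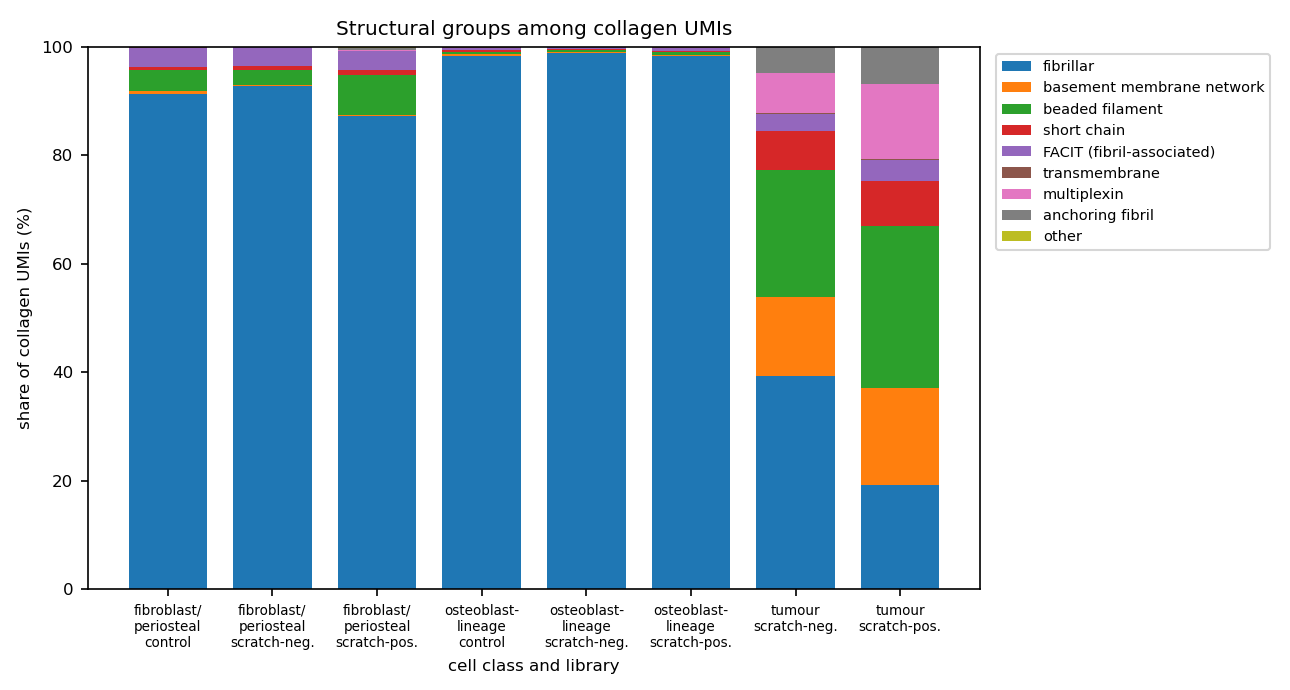
Share of collagen UMIs (%) from each structural group, stacked to 100%, for each cell class and library. Fibrillar chains fill 87.3% or more of the stromal bars and 39.3% and 19.3% of the tumour bars.

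Not every member had its molecules in these classes. Col10a1, made by hypertrophic cartilage, held 0 UMIs in all 3. The cartilage collagens Col2a1 and Col9a3 held 15528 and 3364 UMIs in the control library, of which 2876 and 560 lay in its 71 cells of the chondrocyte class (41957 and 8170 CPM), so most of their UMIs lay in other barcodes.

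**Figure D2:**
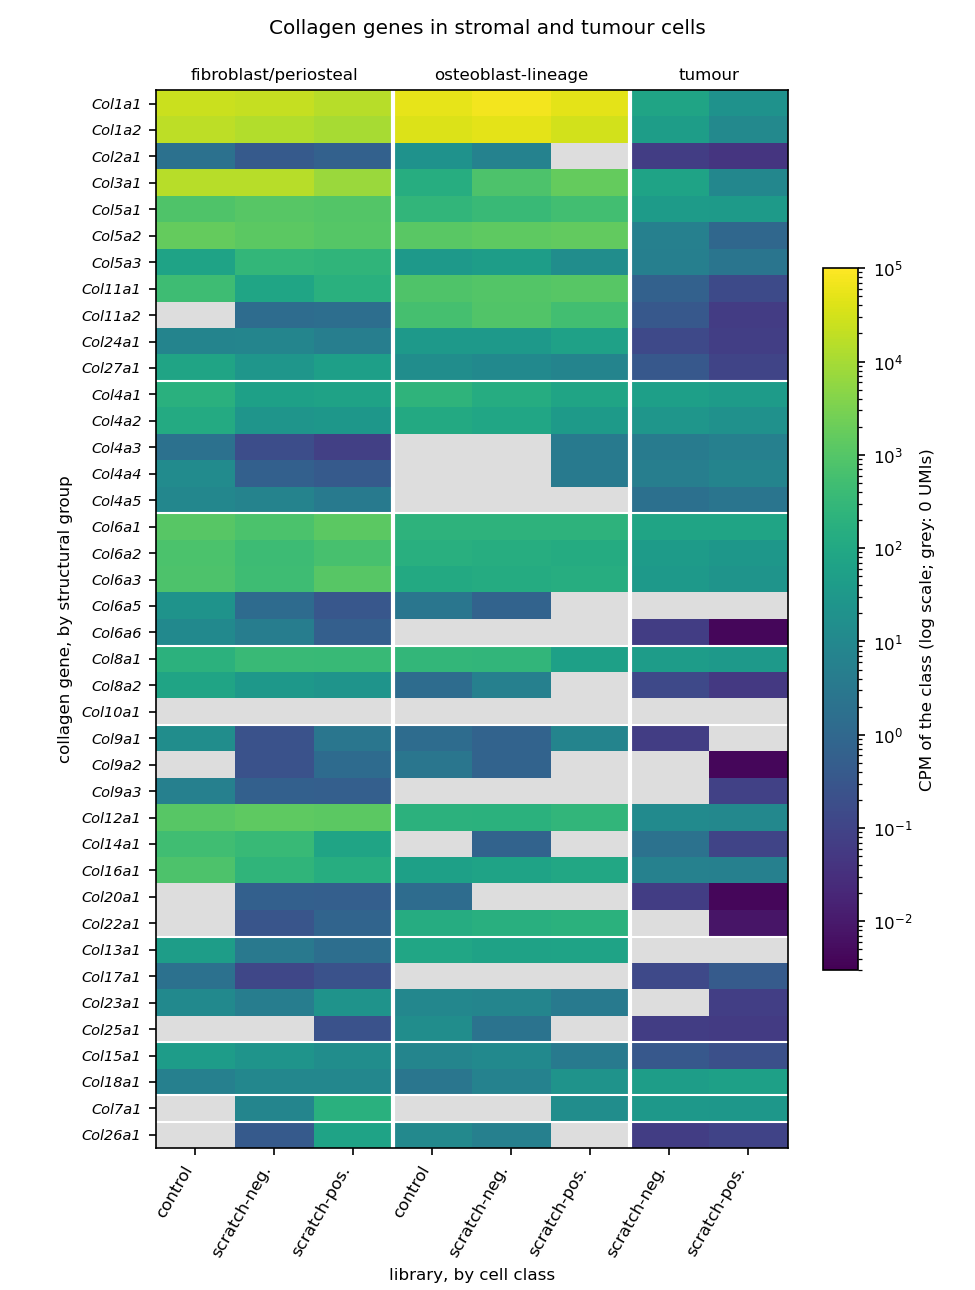
CPM (log colour scale; grey where no UMI was counted) of the 40 collagen genes, in rows by structural group, in fibroblast/periosteal, osteoblast-lineage and tumour cells of each library. Col1a1 and Col1a2 lead both stromal classes, Col3a1 is high in fibroblasts, and the Col7a1 and Col26a1 rows brighten in scratch-positive fibroblasts.

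The 2 chains of type I collagen dominated. Col1a1 (chr11:94936224-94953042, mm10, plus strand) stood at 25402, 21806 and 15365 CPM in fibroblasts and at 52797, 72693 and 48904 CPM in osteoblast-lineage cells. Col1a2 stood at 17491, 13471 and 10399 CPM in fibroblasts and at 40217, 49944 and 29881 CPM in osteoblast-lineage cells. The lowest osteoblast-lineage level of either gene thus lay above its highest fibroblast level. This holds for levels summed over a class and not for its typical cell. In each library the median osteoblast-lineage cell held less Col1a1 than the summed level, as given below. Type I collagen holds 2 alpha1 chains for each alpha2 chain, and the ratio of Col1a1 to Col1a2 UMIs was 1.45, 1.62 and 1.48 in fibroblasts, 1.31, 1.46 and 1.64 in osteoblast-lineage cells, and 1.60 and 2.06 in tumour cells of the tumour-bearing libraries.

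Type III collagen separated the stromal classes. Col3a1 (chr1:45311538-45349706, mm10, plus strand) stood at 15657, 15642 and 7634 CPM in fibroblasts against 149, 786 and 1624 CPM in osteoblast-lineage cells. There were 0.616, 0.717 and 0.497 Col3a1 UMIs per Col1a1 UMI in fibroblasts and 0.00282, 0.0108 and 0.0332 in osteoblast-lineage cells. Every fibroblast library was thus above every osteoblast-lineage library. Scratch-positive was the lowest of the fibroblast libraries and the highest of the osteoblast-lineage ones, the latter on 15 cells.

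Against control, scratch-negative fibroblasts kept their main fibrillar chains within 1.5-fold while many minor collagens were lower. Of 32 collagens with 10 or more UMIs, 3 were higher and 15 lower. Among all 13296 genes tested, 8.2% were called higher and 16.4% lower, so the share of collagens called lower, 46.9%, was above the background and the share called higher, 9.38%, was near it. The median log2 ratio of the collagens was -0.70, against -0.14 over all genes (-0.85 and -0.33 with genes at 0 UMIs set to their bounds). All 49 control fibroblasts lay in 1 cluster, number 12, while 348 of the 539 scratch-negative fibroblasts lay in another, number 23. Marker levels of the class moved too: the 12 fibroblast markers summed to 22050, 7918 and 4551 CPM, the osteoblast markers (10, 11 and 11 of 12 detected, Dmp1 at 0 in each library) to 2768, 224 and 200 CPM, and the 10 neutrophil markers, all detected, to 36390, 31169 and 4329 CPM. Their part in the ratios was not tested.

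Among fibrillar chains, 1 was called higher, Col5a3, a minor chain of type V collagen, which regulates fibre diameter. It stood at 71.1 CPM in control and 294 in scratch-negative, 4.14-fold higher (3.01 to 5.85), and at 254 in scratch-positive. Col5a1 was at 829, 1092 and 990 CPM and Col5a2 at 1619, 1276 and 1061 CPM, with neither called in either comparison. The ratio of Col5a1 to Col5a2 UMIs went from 0.512 in control to 0.855 and 0.933. Col11a1, which nucleates thin fibres in cartilage and bone, went the other way, from 451 to 78.6 CPM, 5.74-fold lower (4.98 to 6.58), and stood at 179 CPM in scratch-positive. Col27a1, a cartilage-associated fibrillar chain, was at 73.0, 27.1 and 52.2 CPM, 2.69-fold lower in scratch-negative. Both lower fibrillar chains were thus lowest in scratch-negative.

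Basement membrane chains were lower in scratch-negative fibroblasts, with 3 of 4 tested called and a median log2 ratio of -1.93. Col4a1 and Col4a2, the chains of the common type IV heterotrimer, were at 174 and 118 CPM in control and at 57.3 and 24.7 CPM in scratch-negative. These were 3.04-fold (2.43 to 3.76) and 4.78-fold (3.61 to 6.24) lower. Col4a4 held 7 UMIs in control and 10 in scratch-negative, 22.2-fold lower by CPM (7.17 to 64.6). Scratch-positive levels of Col4a1 and Col4a2, 65.1 and 29.5 CPM, were near those of scratch-negative. In the same class the 8 endothelial markers (1, 6 and 7 detected) summed to 5.61, 11.7 and 12.2 CPM and the 8 pericyte markers (5, 7 and 8 detected) to 82.3, 35.0 and 57.7 CPM. The pericyte sum was thus lower in scratch-negative too, and its part in the Col4a1 and Col4a2 ratios was not tested.

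Beaded filament chains were also lower, 4 of 5. Col6a1, Col6a2 and Col6a3, which assemble into type VI collagen, were at 1102, 752 and 801 CPM in control and at 724, 436 and 463 CPM in scratch-negative. They were 1.52-fold (1.40 to 1.65), 1.73-fold (1.56 to 1.91) and 1.73-fold (1.57 to 1.91) lower. Col6a5, an alternative to Col6a3, held 12 and 21 UMIs, 18.1-fold lower by CPM (8.13 to 38.6). The 3 main chains thus moved by similar factors and the minor chain by a larger one.

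Of the fibril-associated collagens 3 of 6 tested were lower, and of the transmembrane collagens 1 of 2. Col9a1 held 8 UMIs in control, 4 in scratch-negative and 34 in scratch-positive, at 14.97, 0.236 and 2.73 CPM. It was 63.5-fold lower in scratch-negative (17.0 to 288). Col9a3 held 3 and 10 UMIs, 9.52-fold lower by CPM (1.68 to 37.0). Chondrocyte markers in the class summed to 198 CPM in control and 57.1 CPM in scratch-negative, and their part in these cartilage collagens was not tested. Col16a1, found at the surface of fibres and near cell membranes, was at 794, 246 and 143 CPM in the 3 libraries. It was 3.22-fold lower in scratch-negative (2.91 to 3.56). Col13a1, a transmembrane collagen, was at 44.9, 3.36 and 1.53 CPM and 13.4-fold lower (7.93 to 21.9). In contrast Col12a1 (1130, 1401 and 1250 CPM), the leading fibril-associated chain of fibroblasts, was called in neither comparison, and Col14a1 (492, 347 and 74.5 CPM) not in this one.

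Short-chain collagens split. Col8a1, a network former of vessel walls and healing tissue, was at 202, 377 and 360 CPM, 1.86-fold higher in scratch-negative (1.54 to 2.28). Its partner Col8a2 was at 73.0, 29.8 and 22.7 CPM, 2.45-fold lower (1.72 to 3.39). The multiplexin Col15a1 was at 43.0, 22.8 and 14.9 CPM and 1.89-fold lower, but 1.42-fold higher within cluster 12 and 1.11-fold higher as a mean over cells, neither called. Col7a1 held 0 UMIs in control and 138 in scratch-negative, 8.14 CPM. It was called higher because its ratio to 0 has no upper bound. Against a floor of 3 UMIs in the control library it was 1.45-fold higher, under the 1.5-fold of a call. The 14 collagens not called were Col1a1, Col1a2, Col3a1, Col5a1, Col5a2, Col11a2, Col24a1, Col4a5, Col6a6, Col12a1, Col14a1, Col20a1, Col23a1 and Col18a1, and 8 had under 10 UMIs (Col2a1, Col4a3, Col10a1, Col9a2, Col22a1, Col17a1, Col25a1 and Col26a1).

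Fibroblast cluster 12, led by Clec3b, Fmod and Angptl1, held 49, 191 and 110 cells of the 3 libraries. Cluster 23, led by Crabp1, Gzmd, Tagln and Lox, held 0, 348 and 311. With 1 library per group, a cluster absent from control may mark a cell type or the libraries. Within cluster 12, scratch-negative against control gave 3 higher, 7 lower and 19 not called collagens, and 11 had under 10 UMIs. Of all genes, 5.8% were called higher and 6.84% lower there. Col1a1 and Col3a1 were there at 25402 and 15657 CPM in control and 18978 and 11767 CPM in scratch-negative, neither called. Lower within the cluster were Col9a1, Col4a4, Col11a1, Col27a1, Col16a1, Col13a1 and Col6a5. The 3 higher were Col8a1 (2.79-fold, 2.30 to 3.42), Col8a2 (1.94-fold, 1.40 to 2.77) and Col14a1 (1.62-fold, 1.43 to 1.85), and Col4a1 was at 259 CPM against 174. The lower Col4a1, Col4a2, Col6a1, Col6a2, Col6a3 and Col8a2 of the whole class were therefore not called lower within cluster 12.

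Between scratch-positive and scratch-negative fibroblasts the collagens moved both ways. Of 36 tested, 9 were higher and 9 lower, with 11.6% of all 13974 genes higher and 16% lower. The shares of collagens, 25% each, were above these. Their median log2 ratio was -0.07 against 0.02 over all genes. This comparison shares its scratch-negative library with the one above, so the directions of a gene in the 2 are not independent.

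The most altered collagens in scratch-positive fibroblasts were Col26a1 and Col7a1. Col26a1 (chr5:136741759-136883209, mm10, minus strand), a little-studied secreted collagen, held 0 UMIs in control, 7 in scratch-negative and 843 in scratch-positive, or 0, 0.413 and 67.7 CPM. It was 164-fold higher (79.2 to 409). Col7a1 (chr9:108953586-108984875, mm10, plus strand), the chain of anchoring fibrils under epithelia, was at 0, 8.14 and 178 CPM, 21.9-fold higher (18.4 to 26.2). Both genes were thus at 0 in control and nearly so in scratch-negative for Col26a1. With cells thinned to 5000 UMIs, a Col7a1 UMI was found in 0% of control, 1.72% of scratch-negative and 39.9% of scratch-positive fibroblasts (0%, 10.8% and 63.4% unthinned). For Col26a1 the shares were 0%, 0.191% and 19.0% (0%, 0.557% and 40.6% unthinned). Neutrophils of scratch-positive, at a median of 8426 UMIs against 28607 in fibroblasts, gave 1.23% for Col7a1 and 0.164% for Col26a1 when thinned, so both fibroblast shares lay above this background. In scratch-positive fibroblasts Col7a1 had a median of 0.808 UMIs per 10000, with 36.6% of cells at 0 and a highest cell at 40.9. Tumour cells of scratch-positive held Col7a1 at 28.7 CPM, below the fibroblasts, and Col26a1 at 0.101 CPM. The epithelial markers in the fibroblast class summed to 64.8 CPM in scratch-negative and 128 in scratch-positive, against 2027 and 2810 CPM in tumour cells.

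Of the type VI chains, 2 were higher. Col6a3 was at 463 and 1077 CPM, 2.33-fold higher (2.26 to 2.39), and Col6a1 at 724 and 1272 CPM, 1.76-fold higher (1.72 to 1.80). Col6a2 was at 436 and 636 CPM, 1.46-fold, not called. The number of Col6a3 UMIs per Col6a1 UMI was 0.727 in control, 0.640 in scratch-negative and 0.847 in scratch-positive. The minor chains were lower, Col6a6 from 81 to 7 UMIs (8.50-fold, 3.94 to 21.8) and Col6a5 from 21 to 4 UMIs (3.86-fold, 1.30 to 15.5). Col11a1, at 78.6 and 179 CPM, was 2.27-fold higher (2.12 to 2.44) and Col27a1, at 27.1 and 52.2 CPM, was 1.92-fold higher (1.70 to 2.17). Col23a1, a transmembrane collagen, went from 4.78 to 21.6 CPM, 4.52-fold higher (3.51 to 5.87). Col9a1 and Col9a2, on 4 UMIs each in scratch-negative and 34 and 16 in scratch-positive, were 11.6-fold (4.13 to 44.9) and 5.45-fold (1.76 to 22.4) higher.

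Among the abundant fibrillar chains Col3a1 differed most. It was 2.05-fold lower in scratch-positive than in scratch-negative (2.03 to 2.06), while Col1a1 (0.705 of its scratch-negative level) and Col1a2 (0.772) were lower by less than 1.5-fold. Col14a1, which links fibres in mature connective tissue, went from 347 to 74.5 CPM, 4.65-fold lower (4.34 to 4.99). Col16a1 was 1.72-fold lower, Col13a1 2.20-fold, Col4a5 1.76-fold, Col15a1 1.54-fold and Col24a1 1.53-fold. The 18 collagens not called were Col1a1, Col1a2, Col2a1, Col5a1, Col5a2, Col5a3, Col11a2, Col4a1, Col4a2, Col4a4, Col6a2, Col8a1, Col8a2, Col9a3, Col12a1, Col20a1, Col22a1 and Col18a1, and 4 had under 10 UMIs. The median fibroblast held 523, 548 and 381 collagen UMIs per 10000 in the 3 libraries, with 10th and 90th percentiles of 127 and 1270, 250 and 1058, and 207 and 731.

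**Figure D3:**
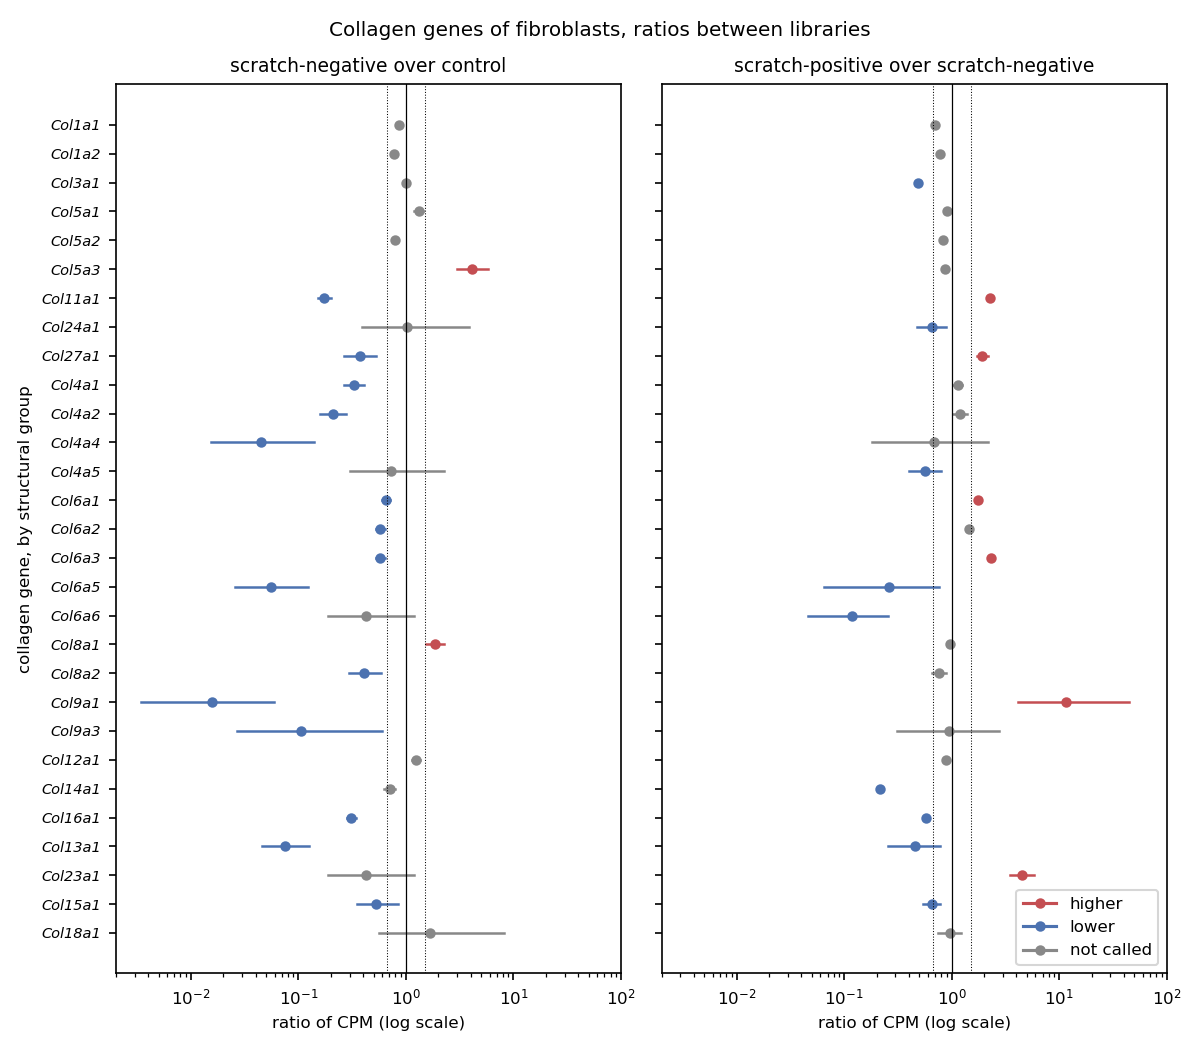
Ratio of CPM between libraries (log axis) for the 29 collagen genes with UMIs in all 3 fibroblast libraries and at least 10 in each comparison; bars are 95% counting intervals, dotted lines 1.5-fold, and colours the call. In the left panel Col1a1, Col1a2 and Col3a1 lie inside the dotted lines and Col9a1 lies farthest left, and Col7a1 and Col26a1, at 0 in control, are not drawn.

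The clusters differed in which collagens moved. Within cluster 12, scratch-positive over scratch-negative gave 4 higher, 9 lower and 20 not called collagens, against 6.25% and 13.7% of all genes. Within cluster 23 it gave 10 higher, 7 lower and 12 not called, against 14.8% and 15.2% of all genes. Col7a1 belonged to cluster 23, at 9.84 and 215 CPM, and held 2 and 3 UMIs in cluster 12. In cluster 23 Col26a1 held 1 UMI in scratch-negative and 812 in scratch-positive, a ratio of 1089 with a counting interval from 195 to 43067. In cluster 12 it held 6 and 31. Col3a1 was at 16521 and 7449 CPM in cluster 23 (2.22-fold lower), where Col1a1 was at 22448 and 14776 CPM (1.52-fold lower), and Col3a1 was at 11767 and 8521 CPM in cluster 12, not called. Against control, Col3a1 in scratch-positive cluster 12 was 1.84-fold lower. In that comparison 3 collagens were higher, 10 lower and 18 not called, with 9.71% and 14% of all genes called higher and lower.

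The common type IV chains, Col4a1 and Col4a2, went opposite ways in the 2 clusters. In cluster 12 Col4a1 was at 259 and 118 CPM, 2.20-fold lower in scratch-positive (1.91 to 2.54), and Col4a2 at 103 and 57.3 CPM, 1.80-fold lower. In cluster 23 Col4a1 was at 11.6 and 54.1 CPM, 4.67-fold higher (3.91 to 5.60), and Col4a2 at 6.88 and 23.7 CPM, 3.44-fold higher (2.71 to 4.41). Col4a5 was lower in both, 3.13-fold in cluster 12 and 1.51-fold in cluster 23. The difference between clusters was not tested. Type VI chains were higher in scratch-positive in cluster 23 (Col6a3 2.81-fold, Col6a1 1.99-fold, Col6a2 1.68-fold) and not called in cluster 12, where Col6a3 was at 644 and 547 CPM. Col14a1 was lower in both, 3.51-fold in cluster 12 and 5.73-fold in cluster 23.

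**Figure D4:**
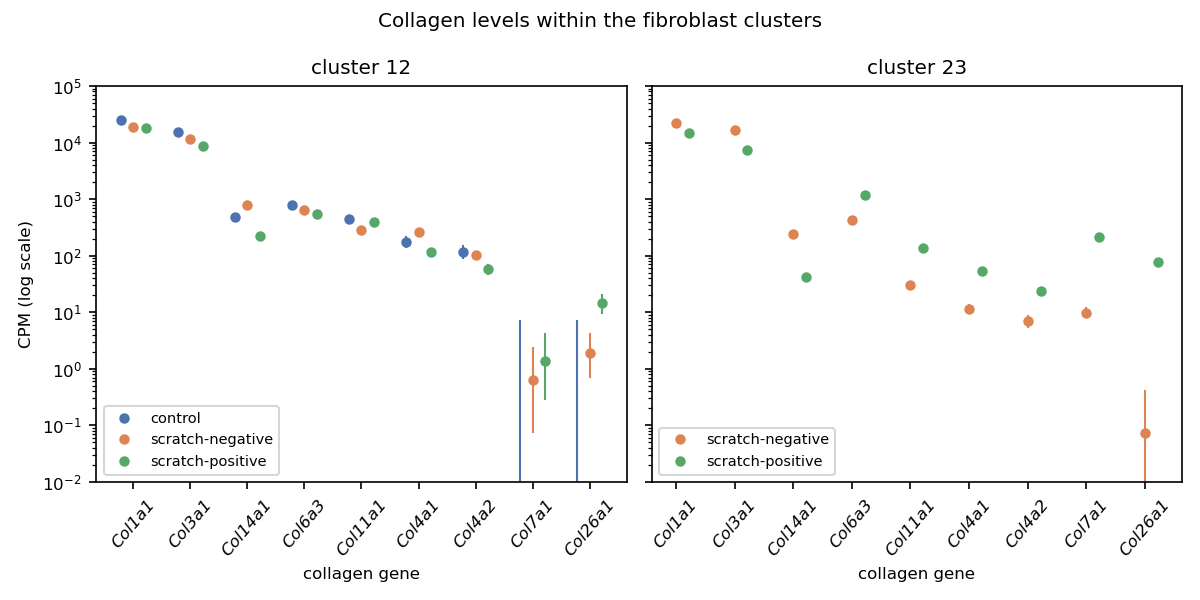
CPM (log axis) of 9 collagen genes in fibroblast clusters 12 and 23, coloured by library; bars are exact Poisson 95% intervals, and a bar without a point marks 0 UMIs. Col4a1 and Col4a2 are lower in scratch-positive than in scratch-negative in cluster 12 and higher in cluster 23, where the Col7a1 and Col26a1 points also separate.

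Osteoblast-lineage cells were compared only between scratch-negative and control, since scratch-positive held 15. Most collagens were not called. Of 26 tested, 1 was higher and 3 lower (4.65% and 11.8% of all 9840 genes), shares of 3.85% and 11.5% that are near the background. The median log2 ratio was 0.08, against -0.15 over all genes. The higher gene was Col3a1, at 149 and 786 CPM, 5.27-fold (4.33 to 6.47). The fibroblast markers in these cells summed to 3640 and 4344 CPM and their part in the Col3a1 difference was not tested.

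The lower members were Col4a1, at 234 and 138 CPM (1.69-fold, 1.37 to 2.09), Col25a1, on 11 and 3 UMIs (6.78-fold, 1.79 to 37.8), and the cartilage collagen Col2a1, on 15 and 9 UMIs (3.08-fold, 1.26 to 7.98). The other 22 were not called, and 14 had under 10 UMIs. Other structural groups were led by Col6a1 (219, 217 and 215 CPM in the 3 libraries), Col8a1 (282, 260 and 56.5), Col12a1 (206, 192 and 268) and Col13a1 (84.6, 66.1 and 71.6). Col5a2 was at 1189, 1396 and 1557 CPM and Col11a1, which bone-forming cells use with type V collagen, at 834, 945 and 1127 CPM. Col22a1, a fibril-associated chain of tissue junctions, was at 137, 163 and 196 CPM here and at most 0.803 CPM in fibroblasts.

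The class was uneven. In control, scratch-negative and scratch-positive the median cell held 13.5, 32.5 and 154 Col1a1 UMIs per 10000, while the 90th percentile held 1284, 1484 and 1146. Markers of marrow reticular cells, which are stromal cells of the marrow, summed to 11365, 5460 and 4033 CPM in it, beside 55471, 67608 and 23293 CPM for osteoblast markers. Fewer matrix-forming cells in the class and less RNA per cell cannot be told apart in the summed levels.

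Tumour cells of scratch-positive differed from those of scratch-negative in fibrillar chains. Of 32 collagens tested, 0 were higher and 9 lower, against 3.46% and 12.7% of all 14950 genes. The lower share, 28.1%, was above the background. Of the 11 fibrillar chains 8 were lower, with a median log2 ratio of -1.85, and of the 5 basement membrane chains none was called, with a median of 0.45. Over all collagens the median was -0.42, against 0.02 over all genes. Another 23 were not called and 8 had under 10 UMIs. The control library held 1 tumour-class cell and was not compared.

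Col1a1 was at 75.9 CPM in scratch-negative and 21.0 in scratch-positive, 3.61-fold lower (3.38 to 3.86). Col1a2 was at 47.3 and 10.2 CPM, 4.64-fold lower (4.26 to 5.05), and Col3a1 at 70.3 and 9.32 CPM, 7.55-fold lower (7.001 to 8.13). These 3 were the chains that dominate fibroblasts. Col5a2 was at 5.59 and 1.0098 CPM, 5.54-fold lower (4.25 to 7.15), and Col5a3 at 5.17 and 2.47 CPM, 2.09-fold lower. Col14a1 held 29 UMIs in 202 cells and 26 in 3635, 19.4-fold lower (11.02 to 34.3). Col11a1, Col11a2 and Col27a1, on 9, 5 and 5 UMIs in scratch-negative, were 4.23-fold, 5.43-fold and 3.34-fold lower, the last with an interval from 1.002 to 8.84. With Scrublet's own doublet threshold the log2 ratio of Col11a1 turned to 0.32.

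Collagen UMIs of neutrophils moved with those of tumour cells. Neutrophils carried 1.08 Col1a1 UMIs per cell in scratch-negative and 0.328 in scratch-positive, and 0.524 and 0.152 of Col3a1, while tumour cells carried 5.38 and 1.44 of Col1a1 and 4.98 and 0.637 of Col3a1. Thinned to 5000 UMIs, a Col1a1 UMI was in 17.4% and 9.18% of tumour cells and in 32.2% and 14.7% of neutrophils, whose median depths were 9927 and 8426 UMIs against 70815 and 64173. Unthinned, the shares were 84.7% and 67.3% of tumour cells and 56.7% and 27.5% of neutrophils. The tumour shares of Col1a1 thus lay below those of neutrophils when thinned and above them when not. Because the depths differ, neither share separates free RNA from RNA of the tumour cells. The shares are not read as expression, and the source of these UMIs was not tested. Dcn, a fibroblast proteoglycan gene, was at 12.6 and 0.797 CPM in tumour cells. Ptprc, which encodes CD45, had a UMI in 39.1% and 8.78% of tumour cells, and neutrophil markers summed to 27115 and 977 CPM. The 12 fibroblast markers summed to 289 and 285 CPM. Without the cells holding a Ptprc UMI, Col1a1 was 2.89-fold and Col3a1 4.80-fold lower. With the mean UMIs of neutrophils subtracted, they were 3.89-fold and 9.22-fold lower. In cells with at most 10 collagen UMIs per 10000 they were 2.15-fold and 3.47-fold lower. That limit selects cells on collagen UMIs that include both genes, so by itself it can shrink their ratios. Of the 1086 Col1a1 UMIs in scratch-negative tumour cells, 527 lay in the 23 cells of tumour cluster 25.

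Other collagens of tumour cells, type VI chains and Col18a1 among them, were not called. Col6a1, the leading collagen of scratch-positive tumour cells, was at 74.6 and 72.2 CPM, a ratio of 0.968 (0.910 to 1.03). Col6a2 was at 39.8 and 29.7 CPM and Col6a3 at 32.6 and 23.7. Thinned, a Col6a1 UMI was in 26.7% and 28.1% of tumour cells and in 1.98% and 2.96% of neutrophils. Col18a1, a basement membrane multiplexin and the source of endostatin, was at 45.8 and 57.9 CPM (1.26-fold, 1.17 to 1.37). It was in 17.9% and 22.6% of thinned tumour cells, against 0.0279% and 0.822% of neutrophils. Unthinned, Col6a1 was in 82.7% and 85.8% and Col18a1 in 76.2% and 84.7% of tumour cells. These 2 genes thus stood well above the neutrophil shares in both libraries.

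Col4a1 was at 52.8 and 39.3 CPM (0.744, 0.691 to 0.803) and Col4a2 at 27.2 and 19.3. Col4a3 and Col4a4, chains of specialised basement membranes, were at 3.98 and 5.69 CPM and at 4.96 and 7.44 CPM. Their ratios, 1.43 (1.10 to 1.90) and 1.4998 (1.18 to 1.93), did not reach the call. Col7a1 was at 30.2 and 28.7 CPM (0.951, 0.863 to 1.05), Col8a1 at 44.5 and 35.0, and Col12a1 at 11.95 and 9.82. Col17a1, the transmembrane collagen of the epithelial hemidesmosome, held 2 UMIs in scratch-negative and 105 in scratch-positive, a ratio of 3.02 whose interval (0.816 to 25.3) spans 1. Col5a1, the leading fibrillar chain of scratch-positive tumour cells, was at 40.1 and 36.5 CPM (0.911, 0.837 to 0.993). With Col5a2 lower, the ratio of Col5a1 to Col5a2 UMIs was 7.17 and 36.2 in tumour cells, against 0.933 or less in each fibroblast library.

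**Figure D5:**
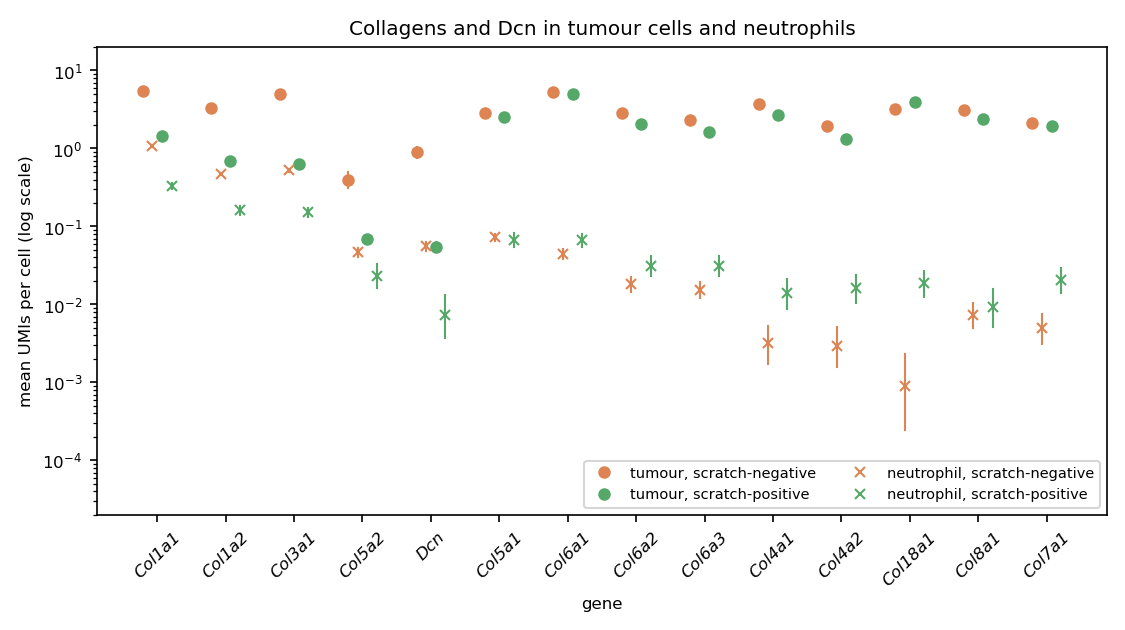
Mean UMIs per cell (log axis) of 13 collagen genes and Dcn in tumour cells (circles) and neutrophils (crosses), coloured by library; bars are exact Poisson 95% intervals. For Col1a1, Col1a2, Col3a1, Col5a2 and Dcn both cell classes are lower in scratch-positive, and for Col6a1 and Col18a1 the circles stand far above the crosses.

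The tumour clusters differed in level. In tumour cluster 22, the largest of scratch-negative with 154 cells and 261 in scratch-positive, Col1a1 was at 46.0 and 19.0 CPM and Col3a1 at 37.7 and 8.43 CPM. Col6a1 was at 74.9 and 78.0 CPM there. Among scratch-positive cells, Col6a1 was at 116 CPM in cluster 25, 53.7 in cluster 26 and 48.0 in cluster 24, and Col18a1 at 82.1, 49.0 and 45.8 CPM. Cluster 25 was thus the highest of the 4 tumour clusters in both genes.

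Genes that make, modify, cross-link and bind collagen were followed as a list of 45. In fibroblasts 16 of 43 tested were higher and 4 lower in scratch-negative than in control (37.2% and 9.30%, against 8.2% and 16.4% of all genes), with a median log2 ratio of 0.47. Of 15 hydroxylases and glycosyltransferases, which modify the chains before they fold, 9 were higher and 1 lower. P4ha2, a prolyl hydroxylase subunit, was at 74.9, 473 and 126 CPM in the 3 libraries, and Plod2, a lysyl hydroxylase, at 73.0, 366 and 129 CPM. Among 5 cross-linking oxidases 4 were higher, led by Lox at 110, 1444 and 488 CPM. P4ha2, Plod2 and Lox were 6.32-fold, 5.01-fold and 13.1-fold higher in scratch-negative than in control, and 3.75-fold, 2.85-fold and 2.96-fold lower in scratch-positive than in scratch-negative. Pcolce2, an enhancer of procollagen processing, was 6.34-fold lower in scratch-negative than in control (262 and 41.4 CPM), P3h3 1.89-fold (193 and 102 CPM) and the collagen receptor gene Itga11 1.82-fold (46.8 and 25.7 CPM). Within cluster 12, whose cells came from all libraries, the ratios of scratch-negative over control were 3.85 for Lox, 1.82 for Plod2, 1.06 for P4ha2 and 1.12 for Itga11, the last pair not called and Itga11 in the other direction. Lox is also a leading gene of cluster 23, to which control gave no cell.

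In scratch-positive against scratch-negative fibroblasts, 2 of 43 were higher and 10 lower (4.65% and 23.3%, against 11.6% and 16% of all genes), with a median of -0.20. Of the hydroxylation genes 1 was higher and 6 lower, of the cross-linking genes 2 were lower, and none of 7 folding and export genes was called. The 2 higher were P3h2 (15 and 25 UMIs, 2.27-fold) and Tll1, a procollagen protease (4.66 and 7.95 CPM, 1.71-fold). The largest folds down were in genes on few UMIs, Lair1 (24 and 3, 5.88-fold, 1.78 to 30.5), Colgalt2 (20 and 3, 4.90-fold, 1.45 to 25.7) and Itga2 (60 and 10, 4.41-fold). In tumour cells 1 of 42 was higher and 11 lower (2.38% and 26.2%, against 3.46% and 12.7% of all genes), with a median of -0.20. Lox was at 5.94 and 0.451 CPM there (13.2-fold lower), Lair1 on 9 and 32 UMIs (4.89-fold lower), and the collagen uptake receptor Mrc2 on 6 and 22 (4.74-fold lower). Without the tumour cells holding a Ptprc UMI, the log2 ratio of Lair1 turned to 4.63, with a lower limit of -2.26 and no upper limit. Itga11, on 5 and 276 UMIs, was 3.18-fold higher (1.35 to 9.86). In osteoblast-lineage cells 1 of 36 was higher and 4 were lower in scratch-negative than in control, shares of 2.78% and 11.1% near the 4.65% and 11.8% of all genes. The higher gene was P4ha2 (63.1 and 109 CPM, 1.73-fold), and the lower were led by Itga1 (114 and 63.2 CPM, 1.81-fold), P3h3 (80.6 and 45.1 CPM, 1.79-fold) and Ddr2 (87.3 and 50.9 CPM, 1.72-fold).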

How the data were processed

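Single-cell RNA was measured in 3 libraries, 1 per group. The deposited values were UMI counts per gene and cell barcode (10x Genomics Single Cell 3′ v3.1, per the labels' protocols). Per the file headers the counting software was Cell Ranger 6.1.2, and the submitters' processing notes name mm10. The libraries held 7490, 8517 and 9504 barcodes and 100089008, 167623741 and 395654008 UMIs (control, scratch-negative, scratch-positive).

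Barcodes with at least 500 genes and at most 10% mitochondrial UMIs were kept. Doublets were removed by Scrublet score at 0.8% per 1000 barcodes (449, 580 and 723), because its own threshold marked 4 and 2 in control and scratch-negative. This left 6181, 7584 and 8424 cells. Leiden clustering in scanpy 1.11.5 (2000 variable genes without collagens, 30 components, 15 neighbours, resolution 1.0, no batch correction) was followed by naming from markers. UMIs were summed per class and library, and levels carry exact Poisson and ratios exact conditional binomial 95% intervals. Shares of cells used cells thinned to 5000 UMIs. Classes needed 50 cells in both libraries, fibroblasts 40. Gene positions came from GENCODE M21. The ratio calls were tried on simulated fibroblast counts with counting error only, in which 200 genes were raised or lowered 3-fold. These 200 were drawn from genes with at least 50 expected UMIs in both libraries together. Recovery was therefore not tried for genes on fewer UMIs, which the calls include. For scratch-negative over control 156 of the 200 were recovered, with 282 false calls among 13323 genes. For scratch-positive over scratch-negative 199 were recovered, with 133 false calls among 13963 genes. Variation between cells or libraries was not simulated. Python 3.11.15, numpy 2.4.6, scipy 1.17.1 and pandas 2.3.3 were used.

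Genes were named by rule: the chains of collagens I, III, IV, V and VI, the leading member of each structural group in each class, the 10 members with the largest called fold in each direction in each comparison, and 3 collagen-making or collagen-binding genes in each direction. Fibroblast cluster values and Col22a1 were added after values were seen. Members and lists were chosen with earlier results of these data known.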

Additional observations from a re-analysis of the deposited data

Results flagged for a closer look

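Col11a1 and Col27a1 were called in opposite directions in 2 classes for scratch-positive over scratch-negative. The log2 ratio of Col11a1 was 1.19 in fibroblasts and -2.05 in tumour cells. The log2 ratio of Col27a1 was 0.94 in fibroblasts and -1.70 in tumour cells. The tumour values rest on 9 and 5 scratch-negative UMIs. With Scrublet's own doublet threshold the Col11a1 value in tumour cells was 0.32, the same direction as in fibroblasts. The difference between the classes was not tested.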

How the results depend on the processing

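No paired analysis was possible because each group has 1 library, and for the same reason no library could be left out. Under the alternatives, the 16 summary results (counts of collagens called, their median and the ratio of the total collagen share, in 4 comparisons) gave 163 values close to those reported and 41 that moved. The reported share ratios were 0.858 for fibroblasts in scratch-negative over control, 0.712 for fibroblasts and 0.670 for tumour cells in scratch-positive over scratch-negative, and 1.31 for osteoblast-lineage cells.

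The fibroblast share ratio of scratch-negative over control was 0.930 with a minimum of 200 genes, 0.870 at Leiden resolution 2, 0.903 with median-of-ratios scaling, 0.989 as a mean over cells and 0.839 without cells holding a Ptprc UMI. Using only clusters with at least 20 cells in both libraries (cluster 12) gave 0.768, 7 lower collagens in place of 15 and a median log2 ratio of -0.19. That setting also reversed Col15a1 (0.51 on the log2 scale), Col4a1 (0.57), Col8a2 (0.96), P4ha1 (-0.34), Loxl2 (-0.14) and Itga11 (0.17). Col15a1 was at 0.15 as a mean over cells. The fibroblast share ratio of scratch-positive over scratch-negative was 0.723 with 200 genes, 0.686 with a mitochondrial limit of 5%, 0.737 with Scrublet's own threshold, 0.726 at resolution 2, 0.665 with median-of-ratios scaling, 0.716 as a mean over cells, 0.676 without Ptprc cells and 0.717 without shared barcodes. There 5 collagens were lower with Scrublet's own threshold and 5 at a fold of 2.

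In tumour cells, where 0 collagens were higher, 1 was higher with a minimum of 1000 genes, with collagens used for clustering, at resolution 2, as a mean over cells and without shared barcodes. There were 2 with the 5% mitochondrial limit, 2 in cells with at most 10 collagen UMIs per 10000 and 4 in clusters of at least 20 cells. The share ratio was 0.754 with 200 genes, 0.582 with Scrublet's own threshold, 0.650 with median-of-ratios scaling, 0.707 as a mean over cells, 0.860 in clusters of at least 20 cells and 0.829 in cells with at most 10 collagen UMIs per 10000. Col11a1 reversed to 0.32 with Scrublet's own threshold, and Lair1 to 4.63 without Ptprc cells. In osteoblast-lineage cells the share ratio was 1.28 with 1000 genes, 1.297 with the 5% limit, 1.497 with median-of-ratios scaling, 1.597 as a mean over cells and 1.34 without Ptprc cells. There 4, 5 and 3 collagens were higher with the last 3 settings, and 1 was lower with a minimum of 30 UMIs. The cause of these shifts was not tested.

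Kept calls were counted only over the alternatives in which a gene was tested. The alternative minima of 30 UMIs and 1 UMI are among the alternatives counted below. They leave a gene's ratio and interval unchanged, so they could not alter the call of a tested gene. On that basis 7 of 18 collagens called (Col9a1, Col4a4, Col11a1, Col27a1, Col16a1, Col13a1, Col6a5) kept their call in fibroblasts of scratch-negative over control, with 13 alternatives. In fibroblasts of scratch-positive over scratch-negative 11 of 18 did, with 14. In tumour cells 5 of 9 did, with 16 (Col3a1, Col5a2, Col1a2, Col1a1, Col14a1). In osteoblast-lineage cells 2 of 4 did, with 12 (Col3a1, Col25a1). Some of these genes fell below the alternative minimum of 30 UMIs and so had no call at that setting. They were Col9a1 and Col4a4 in the first fibroblast comparison, Col6a5 and Col9a2 in the second, and Col25a1 in osteoblast-lineage cells. Subtracting neutrophil UMIs from tumour cells and limiting their collagen UMIs were chosen after seeing the data. The limit selects cells on the collagen UMIs being compared. After clustering and naming were repeated with Scrublet's own threshold, the fibroblast class held too few control cells. The osteoblast-lineage class held too few cells with that threshold and with 200 genes, so these comparisons were not run. Both settings kept more control cells of all classes, 6575 and 6963 against 6181, so the named classes themselves changed. The 49 control fibroblasts, with 534330 UMIs, limit what could be detected there: the floor of 3 UMIs stands at 5.61 CPM.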

Other observations

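Collagens outside the fibroblast, osteoblast-lineage and tumour classes were densest in control chondrocytes. Those 71 cells, at a median of 949 UMIs, gave 7.83% of their UMIs to collagens, with Col2a1 at 41957 CPM, Col11a1 at 8476, Col9a3 at 8170, Col9a2 at 5398, Col9a1 at 4668, Col11a2 at 3370 and Col10a1 at 2130, and with Col1a1 at 190 CPM. The scratch-negative and scratch-positive libraries held 0 and 1 such cells. Meningeal cells, 6, 20 and 8 in the 3 libraries, gave 1.55%, 1.57% and 1.55%. An unnamed cluster (number 21; 19, 113 and 203 cells at median depths of 1134, 1302 and 1979 UMIs) gave 0.641%, 0.544% and 0.404%. Basement membrane chains made up 12.6%, 14.0% and 12.8% of its collagen UMIs, with Col4a1 at 553 CPM in scratch-negative and 370 in scratch-positive, above the 57.3 and 65.1 CPM of fibroblasts.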
